A study of Mus musculus with 20 samples.

Results

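The genes described here are 36 members of the unfolded protein response and the integrated stress response, found by symbol among the 24421 genes listed for each of 20 RNA sequencing libraries of mouse macrophages. All 36 were listed and all passed the filter on low counts; the lowest single value was 34 reads, for Chac1 in an LP library. By role, 14 encode chaperones and folding factors of the endoplasmic reticulum (ER), 4 act in ER-associated degradation, and 5 are stress sensors or the factor Xbp1. A further 7 are regulators of the ATF4 arm, and 6 are ATF4-type genes of amino acid metabolism and transport.

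The cells were bone marrow-derived macrophages (BMDM), grown in medium that L929 cells, a fibroblast line, had enriched in the growth factor CSF-1. They were treated for 48 h with 1 of 4 formulations, named here as in the labels: LP 3M PIC (the dual formulation), LP 3M and LP PIC (the single ones) and LP (read as the lipoparticle alone). Each of 5 mice gave cells for all 4 conditions, so n = 5 per condition, and every group received LP. The labels do not expand the codes PIC and 3M. Strain, sex, age and adjuvant amounts are not stated in the labels used here, so setting the dual formulation against a single one assumes that both held equal amounts. The 3 comparisons against LP share the same 5 LP libraries.

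The libraries held 9740528 to 23874805 reads in genes (median 22751911). All 12 macrophage markers were detected, with summed levels of 14798 to 20679 CPM (a gene's reads relative to its library total, on a common scale) in LP 3M PIC, 25334 to 31057 in LP 3M, 19562 to 25313 in LP PIC and 16087 to 24862 in LP. Cd3e, Cd3g and Pax5, defining genes of T and B cells, were at 0 in every library, and 8 fibroblast markers summed to at most 136.5 CPM in any library. Cd4, the highest gene of the T and NK cell list, averaged 1.19 CPM in LP PIC and less in the other groups. Erythroid and megakaryocyte markers, led by Pf4, summed to at most 193 CPM in LP 3M PIC, 293 in LP 3M, 25.9 in LP PIC and 26.9 in LP. Their medians were 29.7, 28.7, 23.4 and 25.9 CPM in that order. Sdc1, on the plasma cell list and also known in macrophages, averaged 745 CPM in LP 3M PIC, 455 in LP 3M, 764 in LP PIC and 166 in LP. Summed neutrophil markers, led by S100a8, ran from 4.86 to 537 CPM in LP 3M PIC, with a median of 20.1 CPM. That median lay above every library of the other groups, with at most 17.3, 5.76 and 3.80 CPM in LP 3M, LP PIC and LP. A list of 20 proliferation genes summed to a median of 454 CPM in LP 3M PIC, 1100 in LP 3M, 374 in LP PIC and 1832 in LP. The LP 3M library of mouse 5 stood apart in a cytokine gene, with Il1b at 3.58 CPM against 70.9 to 309.5 CPM in the other LP 3M libraries. Its level of Tnf, another cytokine gene, was 307.5 CPM, within the 274.3 to 530.4 CPM of those libraries. The part of these differences in the results below was not tested.

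In the unfolded protein response, misfolded protein in the ER is sensed by IRE1 (gene Ern1), ATF6 and PERK (gene Eif2ak3). IRE1 and ATF6 raise chaperones and degradation factors, IRE1 by splicing Xbp1 mRNA, while PERK phosphorylates the initiation factor eIF2. Other kinases, among them GCN2 (gene Eif2ak4), which senses amino acid shortage, phosphorylate the same factor, and this integrated stress response favours translation of ATF4, an activator of genes for amino acid synthesis and uptake. In macrophages these pathways also meet signals from pattern recognition receptors.

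Promoter sequences of 33 of the 36 genes were matched by symbol in the RefSeq table (GRCm38.p6; 250 bases before to 50 after the start of each gene); Manf, Hyou1 and Atf6 were not matched. The ER stress response element, CCAAT and CCACG separated by 9 bases of any kind, was searched on both strands because it is the known element of chaperone promoters. It was found in 8 of the 33 genes and in 39 of all 32851 promoters in the table (0.119%). Sites are given 5′ to 3′ on the strand that carries the motif, with 6 bases on either side and the fixed letters in capitals.
Hspa5, chr2:34772025-34772043, 65 bases upstream: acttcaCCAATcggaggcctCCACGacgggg
Hsp90b1, chr10:86705533-86705551, 107 bases upstream: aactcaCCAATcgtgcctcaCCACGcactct
Hsp90b1, chr10:86705638-86705656, 212 bases upstream: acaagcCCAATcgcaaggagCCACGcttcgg
Calr, chr8:84847075-84847093, 162 bases upstream: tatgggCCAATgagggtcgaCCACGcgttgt
Canx, chr11:50325800-50325818, 145 bases upstream: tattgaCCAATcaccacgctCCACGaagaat
Pdia6, chr12:17266491-17266509, 98 bases upstream: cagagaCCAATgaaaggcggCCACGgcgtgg
Dnajc3, chr14:118937827-118937845, 105 bases upstream: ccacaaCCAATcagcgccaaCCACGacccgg
Creld2, chr15:88819520-88819538, 126 bases upstream: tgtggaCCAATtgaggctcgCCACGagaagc
Syvn1, chr19:6046532-6046550, 44 bases upstream: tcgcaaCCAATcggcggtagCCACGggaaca

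The C/EBP-ATF element, searched as TGATGNAA on both strands, is the site type through which ATF4 and its partners act on amino acid response genes. It was found in 4 of the 33 genes and in 1304 of all promoters (3.97%). Another motif, the UPR element TGACGTGG, was in 222 promoters (0.676%) and in none of the 33, which says only that these letters are not in this window. A match is a run of letters and not a site shown to be bound.
Asns, chr6:7693225-7693232, 23 bases upstream: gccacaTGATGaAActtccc
Chac1, chr2:119351049-119351056, 193 bases upstream: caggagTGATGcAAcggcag
Herpud1, chr8:94386317-94386324, 112 bases upstream: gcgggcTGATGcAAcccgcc
Trib3, chr2:152344039-152344046, 14 bases downstream: cccggcTGATGtAAacctga

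For Hspa5, the best known target of the ER response, the 250 bases before the start (chr2:34771840-34772089, plus strand) are shown with the element in capitals.
Hspa5 upstream: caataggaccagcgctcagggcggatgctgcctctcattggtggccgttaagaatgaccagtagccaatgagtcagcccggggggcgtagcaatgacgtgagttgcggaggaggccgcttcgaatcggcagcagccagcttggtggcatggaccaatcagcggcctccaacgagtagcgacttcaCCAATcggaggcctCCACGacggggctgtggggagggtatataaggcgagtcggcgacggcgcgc

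With LP 3M PIC, 8 of 14 chaperones and 6 of 7 ATF4-arm regulators rose. With LP 3M, 13 of 14 chaperones rose and the ATF4-arm regulators Ddit3 and Trib3 fell. With LP PIC, 4 ATF4-arm regulators rose and Chac1 fell, and of the 6 amino acid genes Slc3a2 rose and 3 fell; of the chaperones 3 fell and Calr rose, 28.6% called. A gene was called where its Benjamini-Hochberg adjusted p, from edgeR's quasi-likelihood test over all 12132 tested genes, was under 0.05. That fit had no term for mouse. Against LP, 21 of the 36 genes rose and 5 fell with LP 3M PIC (72.2% called, against 62.2% of all tested genes), with 31.7% of all tested genes called higher and 30.6% lower. With LP 3M, 18 rose and 2 fell (55.6% called, against 39.5% of all tested genes), with 20.0% of all tested genes called higher and 19.5% lower. With LP PIC, 7 rose and 12 fell (52.8% called, against 45.5% of all tested genes), with 22.7% of all tested genes called higher and as large a share lower. The number that rose with LP PIC was 3 without mouse 4, where 34.5% of all tested genes were called. The number that fell with LP 3M was 5 in a mouse-blocked fit and 4 without mouse 4. Those fits called 45.8% and 29.85% of all tested genes with LP 3M. Fewer responding cells and less RNA per cell cannot be told apart in bulk RNA.

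**Figure D1:**
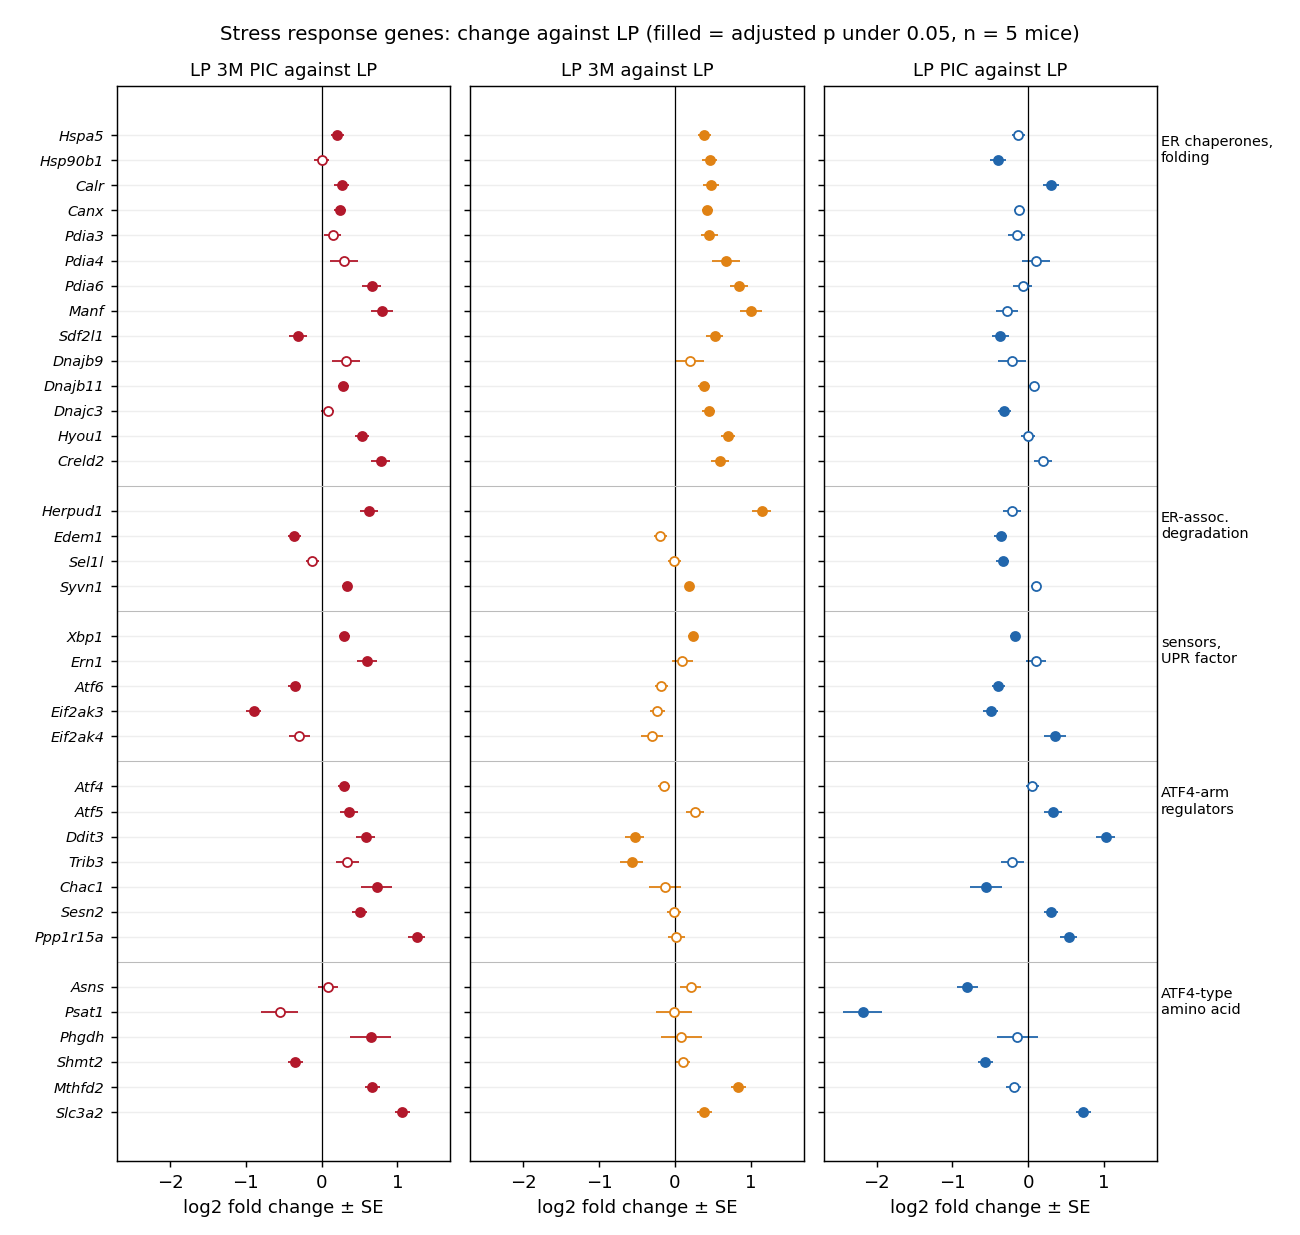
Log2 fold change against LP with its SE for each of the 36 genes (rows, by role) in LP 3M PIC, LP 3M and LP PIC (panels), filled where the adjusted p was under 0.05. In the LP 3M panel 13 of 14 chaperones are filled and right of 0; in the LP PIC panel Psat1 lies farthest left, at −2.18.

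The libraries of a pair of conditions did not overlap at all for part of these genes. Overlap was judged throughout on CPM of plain library totals, whereas the calls used TMM-scaled sizes. Between LP 3M PIC and LP, 12 of the 36 lay wholly higher and 6 wholly lower, where 45.5% of all tested genes did not overlap. Between LP 3M and LP, 10 lay wholly higher and 5 wholly lower (29.4% of all tested genes). The 5 were Edem1, Atf6, Eif2ak3, Atf4 and Ddit3, of which only Ddit3 was called lower. A fit on library totals called 1687 of all tested genes higher and 3564 lower with LP 3M. Between LP PIC and LP, 2 lay wholly higher, Ddit3 and Slc3a2, and 12 wholly lower (33.9% of all tested genes).

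Chaperones and folding factors carry nascent proteins through folding in the ER. With LP 3M, 13 of the 14 rose against LP, by 0.38 (Dnajb11) to 1.00 (Manf) on the log2 scale; Dnajb9 had 0.20 ± 0.18 (adjusted p = 0.404). The median over the 14 was 0.47, against −0.01 over all tested genes, and the count was 13 under all 14 alternative settings, including without LP 3M of mouse 5. With LP 3M PIC, 8 rose and Sdf2l1 fell (median 0.28, against 0.02 over all tested genes). The share of chaperones called, 64.3%, was near the 62.2% of all tested genes, of which 31.7% were called higher. The number that rose was 5 without mouse 3, without mouse 4 or on library totals without TMM scaling. Those fits called 57.02%, 55.46% and 62.65% of all tested genes. With LP PIC, Calr rose and Hsp90b1, Dnajc3 and Sdf2l1 fell (median −0.13), 28.6% called against 45.5% of all tested genes.

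Hspa5 encodes BiP, the main Hsp70 chaperone of the ER, which also holds the sensors inactive. Its level in mice 1 to 5, the order kept below, was 851, 891, 749.8, 801 and 777 CPM in LP 3M PIC and 1027, 1027, 842, 893 and 826 CPM in LP 3M. It was 714, 680.5, 668, 694 and 619 CPM in LP PIC and 844, 804, 709, 732 and 725 CPM in LP. Every mouse had its highest level in LP 3M and its lowest in LP PIC, while across mice the LP 3M and LP libraries overlapped. The log2 change was 0.39 ± 0.08 (SE) with LP 3M (adjusted p = 0.00131) and 0.21 ± 0.08 with LP 3M PIC (adjusted p = 0.0388). The second call was lost when any 1 of the 5 mice was left out and on library totals (adjusted p 0.00871 to 0.315 across settings; 0.117 without mouse 2). With LP PIC the value was −0.13 ± 0.08 (adjusted p = 0.216).

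Hsp90b1 encodes GRP94, the Hsp90 chaperone of the ER, on which several Toll-like receptors depend. Its level was 610.4, 658, 540.1, 568 and 496 CPM in LP 3M PIC and 862, 924, 697, 771 and 714 CPM in LP 3M. It was 464, 439, 466, 469.6 and 450.1 CPM in LP PIC and 727, 668, 537, 591 and 593 CPM in LP. All 5 LP PIC libraries lay below all others. It rose with LP 3M by 0.46 ± 0.10 (adjusted p = 0.00123) and fell with LP PIC, at −0.40 ± 0.10 (adjusted p = 0.00304), and in LP 3M PIC it did not pass the test (adjusted p = 0.999). Between LP 3M PIC and LP 3M it was lower in 5 of 5 mice (−0.46 ± 0.10, adjusted p = 0.00119).

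Hyou1, a large Hsp70-type chaperone that works with BiP, was at 256, 285, 244, 273 and 232 CPM in LP 3M PIC and 334, 327, 265, 281 and 250.4 CPM in LP 3M. It was at 198, 203, 187, 163 and 186 CPM in LP PIC and 212, 209.9, 176, 174 and 195 CPM in LP. The LP 3M PIC and LP 3M libraries all lay above the LP PIC and LP libraries, and the LP PIC and LP libraries overlapped. It rose by 0.53 ± 0.09 with LP 3M PIC (adjusted p = 6.51e-05) and by 0.71 ± 0.09 with LP 3M (adjusted p = 1.05e-05).

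Creld2, an ER-resident protein with disulphide isomerase activity, was at 61.3, 66.9, 59.3, 60.6 and 54.7 CPM in LP 3M PIC and 64.9, 61.1, 45.04, 51.4 and 44.04 CPM in LP 3M. It was at 39.6, 41.6, 36.2, 51.1 and 43.2 CPM in LP PIC and 43.1, 42.6, 36.4, 35.8 and 33.2 CPM in LP. Both 3M-containing groups lay above every LP library. It rose by 0.78 ± 0.12 with LP 3M PIC (adjusted p = 1.53e-05) and by 0.59 ± 0.12 with LP 3M (adjusted p = 0.000694).

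Calr encodes calreticulin, a lectin chaperone that folds glycoproteins, and had the highest level per length of the 36 genes in every condition (486 CPM per kilobase of exon in LP 3M PIC, 563 in LP 3M, 524 in LP PIC and 438 in LP). Its level was 1450, 1439, 1429, 1334 and 1349 CPM in LP 3M PIC and 1968, 1885, 1436, 1457 and 1365 CPM in LP 3M. It was 1566, 1502, 1483, 1644 and 1348 CPM in LP PIC and 1355, 1342, 1204, 1154 and 1251 CPM in LP. Mice 1 and 2 were far above the others in LP 3M, and the LP 3M PIC libraries lay close together. It rose with each formulation, by 0.27 ± 0.10 with LP 3M PIC (adjusted p = 0.0324), 0.48 ± 0.10 with LP 3M (adjusted p = 0.00128) and 0.30 ± 0.10 with LP PIC (adjusted p = 0.0224). The LP 3M PIC call did not hold without mouse 2, 3 or 4 (adjusted p = 0.0702, 0.0877 and 0.0817; 0.0145 to 0.182 across settings), nor without LP 3M PIC of mouse 3 alone (adjusted p = 0.0543). The LP PIC call did not hold without mouse 3 or 4 (adjusted p = 0.0542 and 0.13; 0.00773 to 0.13 across settings).

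**Figure D2:**
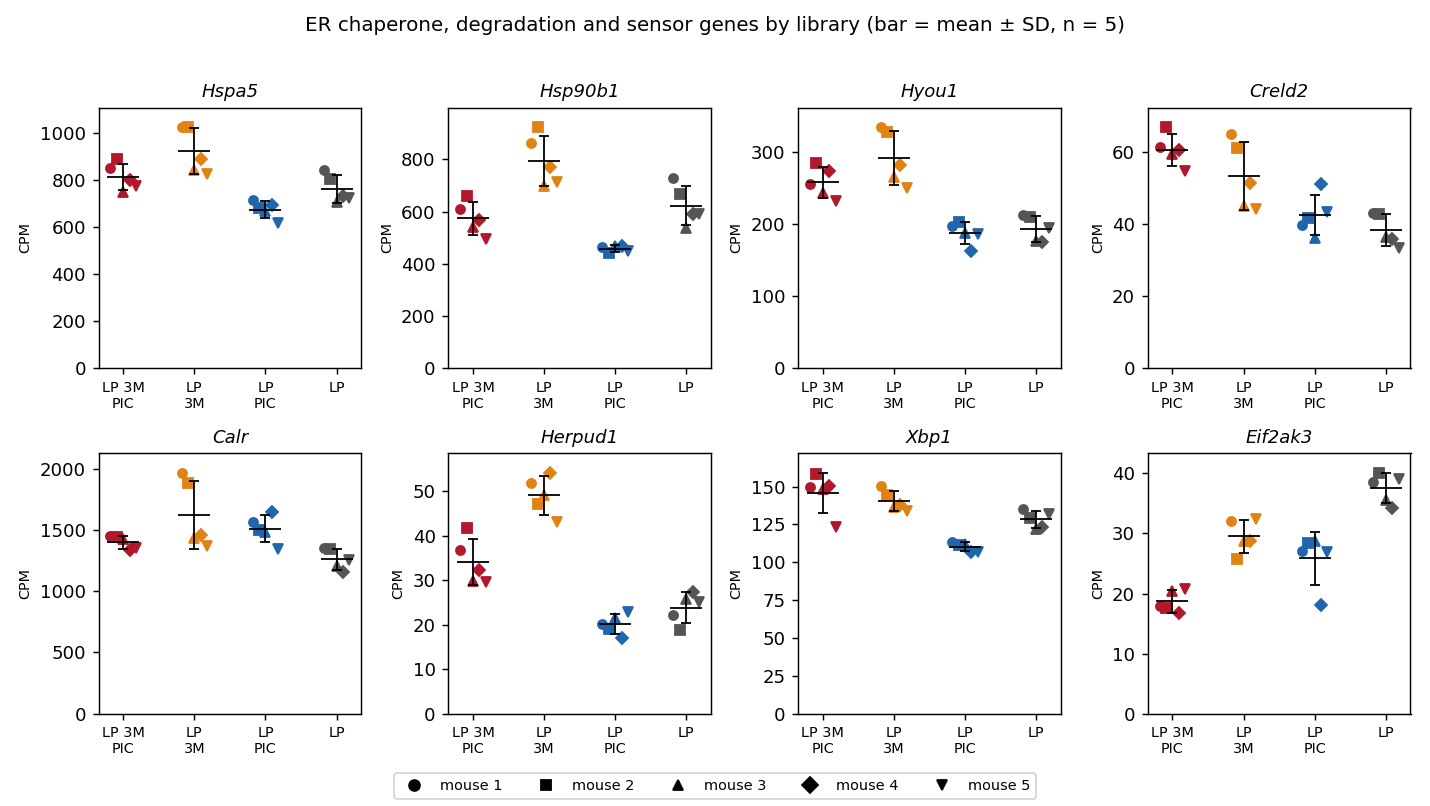
Level in CPM of 8 ER chaperone, degradation and sensor genes in each library (marker shape = mouse), with mean ± SD over 5 mice, in LP 3M PIC, LP 3M, LP PIC and LP from left to right. Herpud1 is highest in LP 3M, at 43.0 to 54.1 CPM, and Eif2ak3 is lowest in LP 3M PIC and highest in LP.

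The largest rises among the other chaperones with LP 3M were those of Manf and Pdia6. Manf, a secreted ER stress protein, averaged 115 ± 15.3 CPM in LP 3M PIC, 132 ± 32.2 in LP 3M, 56.8 ± 3.96 in LP PIC and 71.4 ± 8.98 in LP (SD, n = 5). With LP PIC Manf had −0.28 ± 0.14 (adjusted p = 0.117) and was called lower without mouse 5 (adjusted p = 0.0367; 0.0199 to 0.332 across settings). Pdia6, a disulphide isomerase, averaged 266 ± 32.2, 304 ± 54.3, 168 ± 20.2 and 182 ± 6.31 CPM in the same order of groups. Sdf2l1, part of the BiP complex, was the 1 chaperone that fell with LP 3M PIC; it averaged 56.4 ± 2.20 CPM in LP 3M PIC, 100.5 ± 18.5 in LP 3M, 56.8 ± 8.10 in LP PIC and 75.6 ± 5.74 in LP. It rose with LP 3M (0.52 ± 0.11, adjusted p = 0.00125) and fell with LP 3M PIC (−0.31 ± 0.11, adjusted p = 0.024), the second without a call when mouse 3 or LP of mouse 2 was left out (adjusted p = 0.0514 and 0.0534; 0.000849 to 0.0534 across settings). Its fall with LP PIC was −0.37 ± 0.11 (adjusted p = 0.0127), with no call without mouse 1 or mouse 2 (adjusted p = 0.0806 and 0.0517; 0.00398 to 0.0806 across settings). In a fit with mouse as a block, Dnajb9 and Pdia4 were called higher with LP 3M PIC (adjusted p = 0.00763 and 0.034, against 0.132 and 0.177 without it), and Dnajb9 lower with LP PIC (adjusted p = 0.039, against 0.362).

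Canx, the membrane-bound partner of calreticulin, rose by 0.24 ± 0.07 with LP 3M PIC (adjusted p = 0.00852), with no call without mouse 3 or 4 (adjusted p = 0.0677 and 0.0522; 0.00248 to 0.179 across settings), and by 0.43 ± 0.08 with LP 3M (adjusted p = 0.000186). Pdia3, the isomerase that works with both lectins, had 0.15 ± 0.11 with LP 3M PIC (adjusted p = 0.267) and rose by 0.46 ± 0.11 with LP 3M (adjusted p = 0.00346). Pdia4, another isomerase, rose by 0.68 ± 0.18 with LP 3M (adjusted p = 0.00672). The BiP co-chaperone Dnajb11 rose by 0.29 ± 0.08 with LP 3M PIC and 0.38 ± 0.08 with LP 3M (adjusted p = 0.00323 and 0.00069). Dnajc3, a co-chaperone that also inhibits PERK, rose by 0.45 ± 0.08 with LP 3M (adjusted p = 0.00039) and fell with LP PIC (−0.31 ± 0.08, adjusted p = 0.00516).

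Between the treated groups, 25 of the 36 genes were higher and 3 lower in LP 3M PIC than in LP PIC, where 44.5% of all tested genes were called, 23.1% higher and 21.4% lower; 11 of the 14 chaperones were among those higher. Between LP 3M PIC and LP 3M, 8 were higher and 7 lower (41.5% of all tested genes called, 20.5% higher and 21.0% lower). The 7 included 4 chaperones, Hsp90b1, Pdia3, Sdf2l1 and Dnajc3. Without LP 3M of mouse 5, 9 chaperones and 12 of the 36 genes were lower (37.3% of all tested genes called). In a mouse-blocked fit 7 chaperones were lower, and 9 of the 36 genes were called higher and 10 lower (47.9% of all tested genes called). Between LP 3M and LP PIC, 21 were higher and 5 lower (47.1% of all tested genes called, 24.4% higher and 22.7% lower), with 12 chaperones among those higher. A mouse-blocked fit called 23 higher and 7 lower (53.1% of all tested genes called). The libraries did not overlap for 15 genes higher and 1 lower in LP 3M PIC than in LP PIC (24.4% of all tested genes), 7 higher and 7 lower in LP 3M PIC than in LP 3M (25.0%), and 16 higher and 5 lower in LP 3M than in LP PIC (32.1%). The 8 genes that hold the ER stress response element (7 chaperones and Syvn1) were all called higher with LP 3M, where 20.0% of all tested genes were, and so were 6 of the other 7 chaperones, of which Manf and Hyou1 had no promoter to search. The Syvn1 call was lost under 5 of 14 alternatives.

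Genes of ER-associated degradation, which extract and ubiquitinate misfolded proteins, did not move together. With LP 3M, Herpud1 and Syvn1 rose and the other 2 did not pass the test; with LP 3M PIC, Herpud1 and Syvn1 rose and Edem1 fell; with LP PIC, Edem1 and Sel1l fell. Herpud1, a scaffold of the ligase complex, was at 36.8, 41.6, 29.8, 32.3 and 29.5 CPM in LP 3M PIC and 51.8, 47.05, 49.1, 54.1 and 42.99 CPM in LP 3M. It was at 20.1, 19.1, 21.4, 17.03 and 22.8 CPM in LP PIC and 22.1, 18.8, 25.8, 27.3 and 25.1 CPM in LP. All 5 LP 3M libraries lay above every other library, and all LP 3M PIC libraries above every LP PIC and LP library. It rose by 0.62 ± 0.12 with LP 3M PIC (adjusted p = 0.000167) and by 1.14 ± 0.12 with LP 3M (adjusted p = 7.69e-07), and it was lower in LP 3M PIC than in LP 3M (−0.52 ± 0.12, adjusted p = 0.00176).

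Edem1, which marks misfolded glycoproteins for removal, was at 250.1, 262, 277, 268 and 243 CPM in LP 3M PIC and 267, 277, 326, 289.6 and 305 CPM in LP 3M. It was at 259.8, 288, 315, 217 and 286 CPM in LP PIC and 337, 347, 389, 364 and 366 CPM in LP. Every LP library lay above every library of the other groups. It fell with LP 3M PIC (−0.36 ± 0.09, adjusted p = 0.00109) and with LP PIC (−0.36 ± 0.09, adjusted p = 0.0018); with LP 3M it had −0.19 ± 0.08 (adjusted p = 0.0778), called lower in a mouse-blocked fit (adjusted p = 0.0325) and by DESeq2 (adjusted p = 0.0489; 0.00736 to 0.166 across settings).

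Sel1l, the adaptor of the ligase, was at 202, 203, 189, 203 and 166 CPM in LP 3M PIC and 209.5, 201, 216, 214 and 206 CPM in LP 3M. It was at 178, 192, 185, 132 and 186 CPM in LP PIC and 237, 244, 215, 223 and 218 CPM in LP. LP PIC lay below LP in every library, with mouse 4 lowest, and the change was −0.34 ± 0.08 (adjusted p = 0.00274). Syvn1, the ligase HRD1 itself, was at 109, 104, 94.2, 110.3 and 97.7 CPM in LP 3M PIC and 99.02, 93.6, 93.8, 95.7 and 86.8 CPM in LP 3M. It was at 96.9, 93.7, 88.5, 93.8 and 89.8 CPM in LP PIC and 92.6, 84.4, 89.9, 88.2 and 87.9 CPM in LP. It rose by 0.33 ± 0.06 with LP 3M PIC (adjusted p = 0.000112), whose libraries all lay above LP. With LP 3M it rose by 0.19 ± 0.06 (adjusted p = 0.019), with no call without mouse 1, 2 or 4 (adjusted p = 0.071, 0.0989 and 0.0886), without LP of mouse 2 (adjusted p = 0.0524) or on library totals (0.00638 to 0.224 across settings).

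Among the sensors and their factor, Xbp1 rose with LP 3M PIC and with LP 3M and fell with LP PIC, Ern1 rose with LP 3M PIC, and Atf6 and Eif2ak3 fell with LP 3M PIC and with LP PIC. Xbp1, whose spliced and unspliced mRNAs are counted together here, was at 149.6, 158, 148, 150.5 and 123 CPM in LP 3M PIC and 150.4, 144, 136, 138 and 134 CPM in LP 3M. It was at 113, 112, 112, 107 and 107 CPM in LP PIC and 135, 129, 122, 123 and 132 CPM in LP. Mouse 5 was low in LP 3M PIC, and all LP PIC libraries lay below all others. The change was 0.30 ± 0.07 with LP 3M PIC (adjusted p = 0.000643), 0.24 ± 0.07 with LP 3M (adjusted p = 0.00735) and −0.18 ± 0.07 with LP PIC (adjusted p = 0.0377). On library totals without TMM scaling the LP 3M value was not called (adjusted p = 0.0852; 0.00112 to 0.0852 across settings). The LP PIC call was lost when any 1 of mice 1 to 4 was left out (adjusted p = 0.0945, 0.0871, 0.0835 and 0.0983; 0.00586 to 0.0983 across settings) or without LP of mouse 2 (adjusted p = 0.0521).

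Eif2ak3, the PERK gene, was at 17.9, 17.6, 20.5, 16.7 and 20.8 CPM in LP 3M PIC and 32.0, 25.7, 28.8, 28.8 and 32.4 CPM in LP 3M. It was at 27.1, 28.4, 28.8, 18.1 and 26.96 CPM in LP PIC and 38.6, 40.1, 35.6, 34.2 and 39.05 CPM in LP. Every LP library lay above every library of the 3 other groups. It fell with LP 3M PIC (−0.89 ± 0.10, adjusted p = 3.22e-07) and with LP PIC (−0.49 ± 0.10, adjusted p = 0.000462). With LP 3M the change was −0.23 ± 0.10 (adjusted p = 0.068), called in a mouse-blocked fit (adjusted p = 0.0277) and without mouse 4 (adjusted p = 0.0153; 0.0137 to 0.268 across settings). LP 3M PIC was also lower than LP 3M (−0.66 ± 0.10, adjusted p = 4.88e-05).

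Ern1, the IRE1 gene, averaged 53.02 ± 7.04 CPM in LP 3M PIC, 37.5 ± 7.07 in LP 3M, 39.4 ± 7.94 in LP PIC and 37.7 ± 1.68 in LP (SD, n = 5), and rose with LP 3M PIC by 0.60 ± 0.13 (adjusted p = 0.000678). Atf6 averaged 98.9 ± 4.72, 112 ± 8.88, 101 ± 16.8 and 137 ± 5.82 CPM in the same order and fell with LP 3M PIC (−0.36 ± 0.09, adjusted p = 0.00157) and LP PIC (−0.40 ± 0.09, adjusted p = 0.00113). Eif2ak4, the GCN2 gene, averaged 40.8 ± 9.53, 40.6 ± 6.01, 66.8 ± 11.3 and 53.6 ± 6.68 CPM. It rose with LP PIC by 0.35 ± 0.14 (adjusted p = 0.0477), a call that was lost when any 1 of the 5 mice was left out (adjusted p 0.00091 to 0.112 across settings, 0.11 without mouse 3) or without LP of mouse 2 (adjusted p = 0.112). With mouse as a block it was called lower with LP 3M PIC and with LP 3M (adjusted p = 0.00251 and 0.00494, against 0.083 and 0.103 without it). Atf6 was called lower with LP 3M without mouse 4 (adjusted p = 0.0362, against 0.112 with all mice; 0.0164 to 0.315 across settings).

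Rises among the 7 regulators of the ATF4 arm were called in the groups that received PIC. With LP 3M PIC 6 rose and Trib3 did not pass the test (median 0.50, against 0.02 over all tested genes); with LP 3M none rose and Ddit3 and Trib3 fell (median −0.13, against −0.01); with LP PIC 4 rose and Chac1 fell (median 0.30, against 0.00). Without mouse 4, 2 rose with LP PIC, where 34.5% of all tested genes were called. Between LP 3M PIC and LP 3M, 6 of the 7 were higher (median 0.86), and this count was 6 under all 14 alternatives.

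Atf4 itself, the central activator, was at 222, 286, 230.0, 238 and 288 CPM in LP 3M PIC and 196, 192, 186, 183 and 182 CPM in LP 3M. It was at 196, 229, 244, 231 and 226 CPM in LP PIC and 201, 225, 216, 223 and 251 CPM in LP. The LP 3M libraries lay below every other library, while the other 3 groups overlapped. It rose with LP 3M PIC by 0.29 ± 0.08 (adjusted p = 0.00377); the adjusted p was 0.0596 on library totals without TMM scaling. With LP 3M it had −0.14 ± 0.08 (adjusted p = 0.174), called lower on library totals (adjusted p = 0.0173; 0.0173 to 0.492 across settings).

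Ddit3 encodes CHOP, a factor linked to cell death under prolonged stress. Its level was 72.95, 70.6, 86.6, 79.04 and 91.2 CPM in LP 3M PIC and 36.4, 40.1, 39.4, 36.8 and 32.4 CPM in LP 3M. It was 112, 111, 91.2, 152 and 101 CPM in LP PIC and 49.1, 66.3, 65.3, 57.1 and 50.1 CPM in LP. The LP 3M libraries lay below all others, and the LP 3M PIC and LP PIC libraries above all LP libraries. It rose by 0.58 ± 0.13 with LP 3M PIC (adjusted p = 0.000457) and by 1.02 ± 0.13 with LP PIC (adjusted p = 2.42e-06), and it fell with LP 3M (−0.53 ± 0.13, adjusted p = 0.00259). Each of these calls held under all 14 alternatives.

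Ppp1r15a encodes GADD34, which directs a phosphatase to eIF2 and so ends the response. Its level was 112, 146, 110.5, 119 and 132 CPM in LP 3M PIC and 54.2, 56.8, 47.03, 44.9 and 60.3 CPM in LP 3M. It was 79.9, 98.4, 67.1, 81.4 and 68.6 CPM in LP PIC and 52.5, 69.9, 48.2, 51.5 and 59.6 CPM in LP. The LP 3M PIC libraries lay above all others. It rose by 1.26 ± 0.11 with LP 3M PIC (adjusted p = 1.8e-08) and by 0.54 ± 0.11 with LP PIC (adjusted p = 0.000651), while LP 3M gave 0.02 ± 0.11 (adjusted p = 0.921).

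Trib3, a pseudokinase that restrains ATF4 and CHOP, was at 20.5, 23.3, 22.96, 22.2 and 26.4 CPM in LP 3M PIC and 10.2, 12.2, 15.1, 12.7 and 11.2 CPM in LP 3M. It was at 14.3, 14.7, 16.9, 17.6 and 19.01 CPM in LP PIC and 12.2, 17.6, 25.1, 19.7 and 23.3 CPM in LP. LP libraries spread widely, from 12.2 to 25.1 CPM, with mouse 1 lowest. It fell with LP 3M (−0.57 ± 0.16, adjusted p = 0.00698); with LP 3M PIC it had 0.34 ± 0.16 (adjusted p = 0.0634), called higher in a mouse-blocked fit (adjusted p = 0.0103) and without mouse 3 (adjusted p = 0.0205; 0.0103 to 0.198 across settings). Chac1, an enzyme that degrades glutathione, had the fewest reads of the 36 genes and averaged 5.95 ± 0.679 CPM in LP 3M PIC, 3.28 ± 0.635 in LP 3M, 2.55 ± 0.338 in LP PIC and 3.87 ± 1.46 in LP (SD, n = 5). It rose with LP 3M PIC (0.73 ± 0.21, adjusted p = 0.00438) and fell with LP PIC (−0.56 ± 0.21, adjusted p = 0.0368), the fall without a call when any 1 of mice 2 to 5 was left out (adjusted p = 0.0653, 0.0617, 0.12 and 0.245; 0.0133 to 0.245 across settings).

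Sesn2, a stress-induced brake on mTORC1, rose by 0.50 ± 0.09 with LP 3M PIC (adjusted p = 0.00012) and by 0.30 ± 0.09 with LP PIC (adjusted p = 0.0122), the second without a call when mouse 1 or mouse 4 was left out (adjusted p = 0.106 and 0.0725; 0.00715 to 0.106 across settings). Atf5, a relative of Atf4, ran from 96.2 to 149 CPM in LP 3M PIC, 96.3 to 131 in LP 3M, 113 to 141 in LP PIC and 86.3 to 124 in LP. It rose by 0.36 ± 0.12 with LP 3M PIC (adjusted p = 0.0129), with no call without mouse 3, 4 or 5 (adjusted p = 0.0875, 0.0511 and 0.0755; 0.00301 to 0.0875 across settings) or without LP 3M PIC of mouse 3 (adjusted p = 0.0503). It rose by 0.33 ± 0.12 with LP PIC (adjusted p = 0.03), with no call without mouse 4 or 5 (adjusted p = 0.193 and 0.0894; 0.011 to 0.193 across settings). With LP 3M it was called higher without LP of mouse 2 (adjusted p = 0.0352, against 0.0915 with all libraries; 0.0352 to 0.34 across settings).

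**Figure D3:**
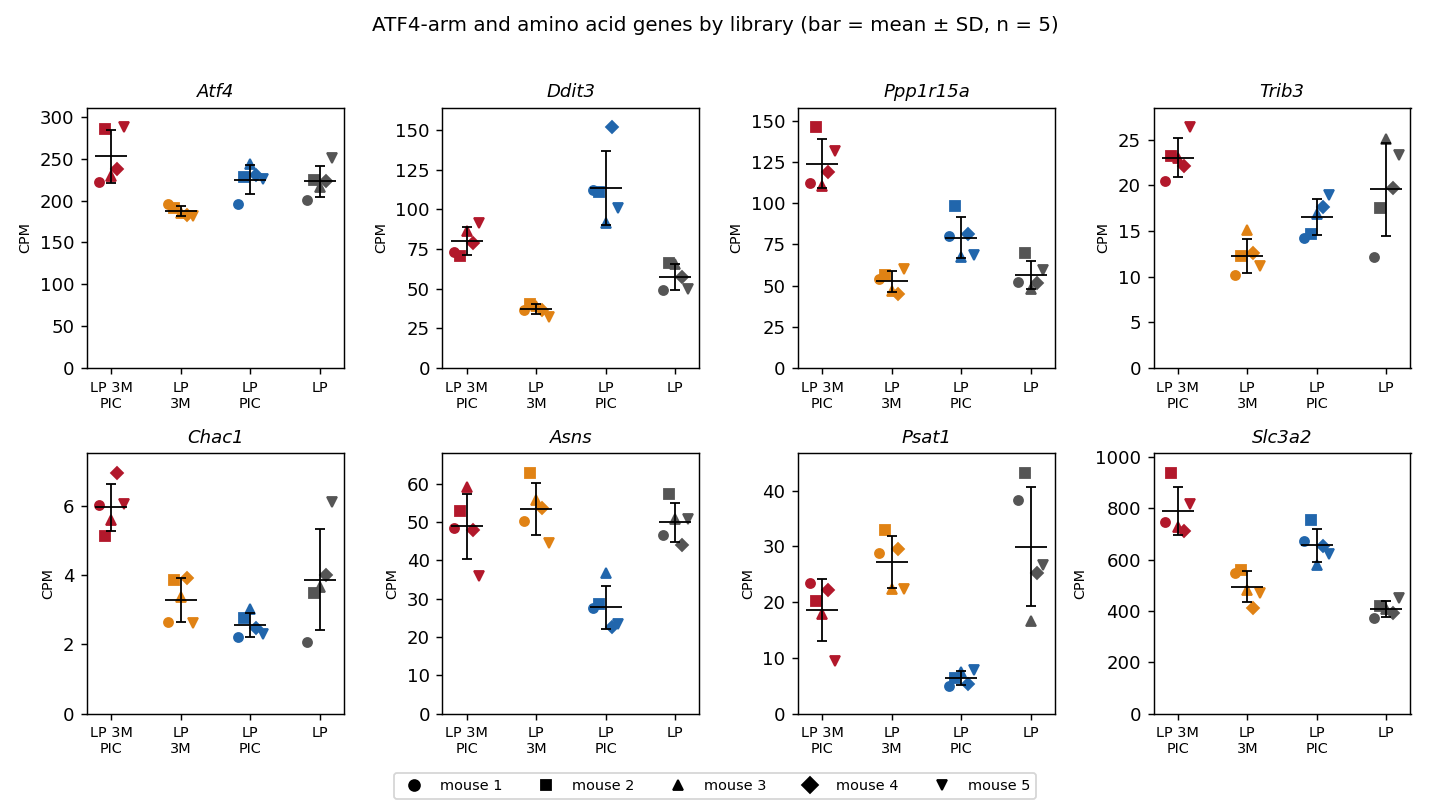
Level in CPM of 8 ATF4-arm and amino acid genes in each library (marker shape = mouse), with mean ± SD over 5 mice, in LP 3M PIC, LP 3M, LP PIC and LP from left to right. Ddit3 is lowest in LP 3M, at 32.4 to 40.1 CPM, and Psat1 and Asns are lowest in LP PIC.

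The amino acid genes split within each comparison. With LP 3M PIC, Slc3a2, Mthfd2 and Phgdh rose and Shmt2 fell (median 0.37, against 0.02 over all tested genes). With LP 3M, Mthfd2 and Slc3a2 rose (median 0.16, against −0.01). With LP PIC, Slc3a2 rose and Psat1, Asns and Shmt2 fell (median −0.38, against 0.00).

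Asns encodes asparagine synthetase, a standard reporter of ATF4 activity. Its level was 48.4, 52.97, 59.2, 48.1 and 36.01 CPM in LP 3M PIC and 50.4, 62.95, 55.8, 53.6 and 44.5 CPM in LP 3M. It was 27.5, 28.7, 36.8, 22.6 and 23.4 CPM in LP PIC and 46.8, 57.4, 50.9, 43.97 and 50.9 CPM in LP. The LP PIC libraries lay below all LP and LP 3M libraries. It fell with LP PIC (−0.80 ± 0.14, adjusted p = 0.00011), while LP 3M PIC gave 0.08 ± 0.14 (adjusted p = 0.611) and LP 3M gave 0.21 ± 0.14 (adjusted p = 0.237).

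Psat1, an enzyme of serine synthesis, was at 23.5, 20.2, 17.9, 22.2 and 9.44 CPM in LP 3M PIC and 28.8, 32.9, 22.3, 29.6 and 22.4 CPM in LP 3M. It was at 4.91, 6.30, 7.45, 5.25 and 7.83 CPM in LP PIC and 38.2, 43.2, 16.5, 25.2 and 26.6 CPM in LP. The LP PIC libraries lay below all others, and mouse 5 was lowest in LP 3M PIC. It fell with LP PIC (−2.18 ± 0.26, adjusted p = 1.93e-06), and LP 3M PIC gave −0.55 ± 0.24 (adjusted p = 0.0565), called lower in a mouse-blocked fit (adjusted p = 0.0465) and without mouse 3 (adjusted p = 0.0338; 0.0216 to 0.181 across settings). Of the 20 proliferation genes, 19 fell with LP 3M PIC, 14 with LP 3M and 20 with LP PIC, and their part in the values of the amino acid genes was not tested.

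Slc3a2 encodes the heavy chain shared by several amino acid transporters. Its level was 745, 939, 728, 711 and 817 CPM in LP 3M PIC and 549, 558, 481, 411 and 469.7 CPM in LP 3M. It was 673, 753, 578, 652 and 621 CPM in LP PIC and 371, 419.8, 408, 389.9 and 449 CPM in LP. The LP 3M PIC and LP PIC libraries overlapped each other and lay above all LP 3M and LP libraries. It rose with each formulation, by 1.06 ± 0.10 with LP 3M PIC (adjusted p = 3.33e-08), 0.39 ± 0.10 with LP 3M (adjusted p = 0.00436, 0.0596 without mouse 1; 0.000742 to 0.0596 across settings) and 0.73 ± 0.10 with LP PIC (adjusted p = 8.9e-06).

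Mthfd2, a mitochondrial folate enzyme, was at 90.2, 80.2, 86.7, 97.4 and 72.4 CPM in LP 3M PIC and 103, 92.7, 104, 101 and 81.1 CPM in LP 3M. It was at 45.2, 43.3, 56.4, 52.7 and 49.5 CPM in LP PIC and 58.1, 62.2, 56.96, 50.4 and 63.5 CPM in LP. Both 3M-containing groups lay above all LP PIC and LP libraries. It rose by 0.67 ± 0.10 with LP 3M PIC (adjusted p = 1.05e-05) and by 0.84 ± 0.10 with LP 3M (adjusted p = 3.27e-06). Shmt2, which feeds the same folate pathway from serine, fell with LP 3M PIC (−0.35 ± 0.10, adjusted p = 0.00493) and LP PIC (−0.56 ± 0.10, adjusted p = 0.000137).

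Phgdh, the first enzyme of serine synthesis, ran from 16.8 to 67.1 CPM in LP 3M PIC, 25.1 to 27.4 in LP 3M, 17.6 to 29.02 in LP PIC and 21.2 to 43.9 in LP. LP 3M PIC was high in mice 3 to 5 and no higher than LP in mice 1 and 2. Its rise with LP 3M PIC (0.65 ± 0.27, adjusted p = 0.0427) was not called in a mouse-blocked fit (adjusted p = 0.0686), without mouse 3, 4 or 5 (adjusted p = 0.336, 0.204 and 0.156) or without LP 3M PIC of mouse 3 (adjusted p = 0.192; 0.000427 to 0.336 across settings).

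Chaperones were set against amino acid genes by the difference of their median log2 changes, which carries no test because the genes were chosen with results known. Against LP, the difference (chaperones minus amino acid genes) was −0.09 with LP 3M PIC, 0.31 with LP 3M and 0.25 with LP PIC. The LP 3M PIC value had the opposite sign, 0.09, without mouse 3 or without LP 3M PIC of mouse 3 alone, and the LP 3M value was 0.18 without mouse 2 and 0.21 without LP of mouse 2 alone. Within mice, on CPM ratios to the same mouse's LP, it was 0.10, 0.61, −0.18, −0.21 and 0.26 with LP 3M PIC in mice 1 to 5. It was 0.41, 0.52, 0.05, 0.11 and 0.17 with LP 3M, and 0.35, 0.55, 0.19, 0.18 and 0.23 with LP PIC. The chaperones lay above the amino acid genes in 5 of 5 mice with either single formulation and in 3 of 5 with the dual one. With LP PIC both medians were negative in every mouse, at −0.209 to −0.048 for the chaperones and −0.735 to −0.241 for the amino acid genes. In LP 3M the chaperone median was positive and the highest of the 3 groups of genes in every mouse, whereas in LP 3M PIC the ATF4-arm regulators had a higher median than the chaperones in every mouse.

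**Figure D4:**
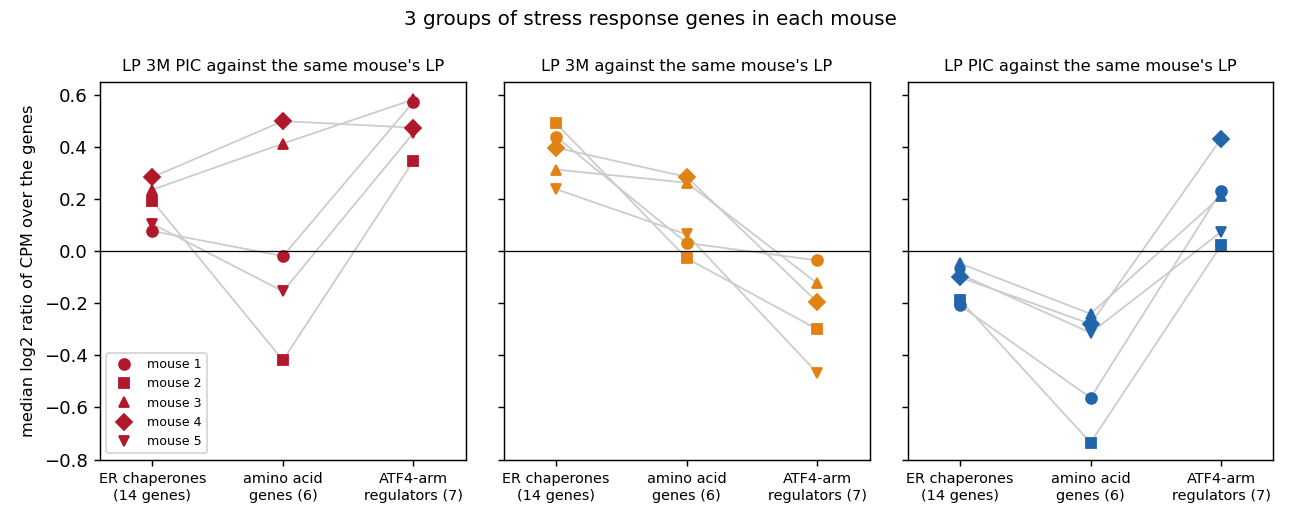
Median log2 ratio of CPM to the same mouse's LP library over 14 chaperones, 6 amino acid genes and 7 ATF4-arm regulators (x axis), 1 line and marker per mouse, in LP 3M PIC, LP 3M and LP PIC. The lines fall to the right in LP 3M, where the ATF4-arm medians are −0.47 to −0.04, and end high in LP 3M PIC, at 0.35 to 0.58.

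Whether PIC acted differently in the presence of 3M was tested as an interaction, the log2 change of LP 3M PIC against LP 3M minus that of LP PIC against LP. It was called higher for 6 of the 36 genes and lower for 1, where 8.43% of all tested genes were called, 3.82% higher and 4.62% lower. The 6 were the ATF4-arm regulators Chac1 (1.42 ± 0.29, adjusted p = 0.00644), Trib3 (1.12 ± 0.22, adjusted p = 0.00481), Ppp1r15a (0.70 ± 0.16, adjusted p = 0.0101) and Atf4 (0.38 ± 0.11, adjusted p = 0.0459), and the amino acid genes Psat1 (1.64 ± 0.35, adjusted p = 0.00793) and Asns (0.68 ± 0.19, adjusted p = 0.0371). The 1 lower was Calr (−0.51 ± 0.15, adjusted p = 0.0357). Each had its direction in 5 of 5 mice. Ddit3 was higher in LP 3M PIC than in LP 3M by 1.11 ± 0.13 and in LP PIC than in LP by 1.02 ± 0.13, and its interaction was 0.09 ± 0.18 (adjusted p = 0.802).

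Of these calls Trib3 held under all 13 alternatives that apply to the interaction (adjusted p 8.63e-05 to 0.0417). Chac1 was not called without mouse 4 (adjusted p = 0.0547; 0.0002 to 0.0547 across settings), and Ppp1r15a was not called without mouse 1 or 4 (adjusted p = 0.0578 and 0.0566; 0.000482 to 0.0578). Psat1 was not called without mouse 1, 2 or 4 (adjusted p = 0.0891, 0.0527 and 0.0624; 0.000138 to 0.0891). Asns was not called without mouse 1, 2 or 4 (adjusted p = 0.172, 0.129 and 0.139; 0.00278 to 0.172), nor without LP of mouse 2, LP 3M PIC of mouse 3 or LP 3M of mouse 5 alone (adjusted p = 0.0696, 0.064 and 0.0577). Calr was not called when any 1 of mice 1 to 4 was left out (adjusted p = 0.164, 0.127, 0.0726 and 0.163; 0.00846 to 0.164). Atf4 was not called when any 1 of the 5 mice was left out (adjusted p = 0.189 without mouse 2; 0.0146 to 0.189), nor without LP of mouse 2 or LP 3M of mouse 5 alone (adjusted p = 0.0679 and 0.0711). Genes not called with all mice were Xbp1, called higher without mouse 5 (adjusted p = 0.0438; 0.0438 to 0.344), Sdf2l1, called lower without LP 3M of mouse 5 (adjusted p = 0.0381; 0.0381 to 0.281), and Eif2ak4, called lower in a mouse-blocked fit (adjusted p = 0.0346; 0.0346 to 0.544). The count of 6 was 2, 3 and 1 without mouse 1, 2 and 4. Those fits called 1.499%, 2.401% and 1.992% of all tested genes for the interaction, against 8.43% with all mice. Of all 20 proliferation genes, 16 had a positive interaction that was called, and their part in these values was not tested.

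**Figure D5:**
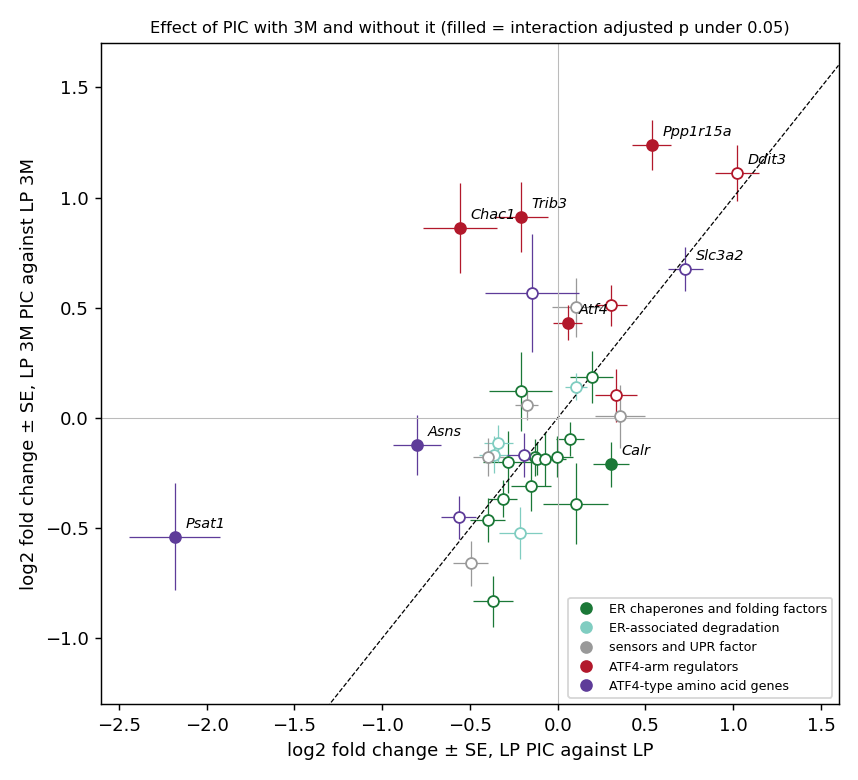
Log2 fold change ± SE of LP PIC against LP (x axis) and of LP 3M PIC against LP 3M (y axis) for the 36 genes, coloured by role and filled where the interaction had an adjusted p under 0.05. Points above the dashed line of equal change, among them Psat1, Chac1 and Trib3, had a positive interaction; Calr lies below it.

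Other genes of the same pathways were taken from lists of each pathway. Of 52 tested genes for other ER folding, translocation and degradation factors, 29 rose and 8 fell with LP 3M PIC (median 0.22), 33 rose and 3 fell with LP 3M (median 0.36) and 7 rose and 10 fell with LP PIC (median −0.02). The shares called were 71.2%, 69.2% and 32.7%, against 62.2%, 39.5% and 45.5% of all tested genes with LP 3M PIC, LP 3M and LP PIC. Serp1, which protects membrane proteins under ER stress, averaged 764 CPM in LP 3M PIC, 639.5 in LP 3M, 156 in LP PIC and 134 in LP; it rose by 2.63 ± 0.26 with LP 3M PIC (adjusted p = 6.5e-08) and 2.37 ± 0.25 with LP 3M (adjusted p = 1.14e-06). Rpn1, a subunit of the glycosylation complex, rose by 0.74 ± 0.09 with LP 3M (adjusted p = 3.28e-06). Ssr2, of the translocon-associated complex, rose by 0.85 ± 0.07 with LP 3M PIC and 0.46 ± 0.07 with LP PIC (adjusted p = 1.21e-08 and 5.51e-05), and Sil1, the nucleotide exchange factor of BiP, rose by 0.53 ± 0.10 with LP PIC (adjusted p = 0.000325). Erp29, a folding factor, fell with LP 3M PIC and LP 3M (−0.41 ± 0.08 and −0.23 ± 0.08; adjusted p = 0.000125 and 0.0218), and Edem3, a relative of Edem1, with LP PIC (−0.62 ± 0.09, adjusted p = 2.57e-05). Ero1lb, an oxidase of the ER, fell with each formulation, at −0.81 ± 0.09 with LP 3M PIC, −0.30 ± 0.08 with LP 3M and −0.58 ± 0.08 with LP PIC (adjusted p = 1.27e-07, 0.0072 and 1.7e-05).

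Of 41 other tested integrated stress response and amino acid genes, 23 rose and 7 fell with LP 3M PIC (median 0.26), 18 rose and 5 fell with LP 3M (median 0.24) and 6 rose and 15 fell with LP PIC (median −0.09). The shares called were 73.2%, 56.1% and 51.2% with LP 3M PIC, LP 3M and LP PIC, against 62.2%, 39.5% and 45.5% of all tested genes, the last pair being close. Slc7a11, the cystine transporter that pairs with the product of Slc3a2, averaged 416 CPM in LP 3M PIC, 170 in LP 3M, 102 in LP PIC and 10.8 in LP. It rose by 5.35 ± 0.34, 4.06 ± 0.32 and 3.24 ± 0.31 with LP 3M PIC, LP 3M and LP PIC (adjusted p = 3.37e-10, 2.08e-08 and 1.23e-07), and its interaction was −1.96 ± 0.40 (adjusted p = 0.00628). Gdf15, a secreted stress cytokine, averaged 94.4 CPM in LP 3M PIC, 49.4 in LP 3M, 14.4 in LP PIC and 43.5 in LP; it rose with LP 3M PIC (1.23 ± 0.18, adjusted p = 7.89e-06) and fell with LP PIC (−1.55 ± 0.18, adjusted p = 1.76e-06), and its interaction was 2.48 ± 0.25 (adjusted p = 1.27e-05). Over the 41 genes of this list, 4 interactions were called higher and 2 lower (14.6% called). Of all tested genes 8.43% were called, 3.82% higher and 4.62% lower. Nupr1, a stress-induced transcription regulator, rose by 3.32 ± 0.27 with LP 3M PIC and 2.82 ± 0.26 with LP PIC (adjusted p = 7.39e-09 and 1.12e-07), and Yars, a tRNA synthetase, by 0.52 ± 0.08 with LP 3M (adjusted p = 8.63e-05). The glutamine transporter Slc38a2 fell with LP 3M PIC and LP 3M (−0.66 ± 0.08 and −0.52 ± 0.08; adjusted p = 1.48e-06 and 7.75e-05), the transaminase Gpt2 with LP 3M PIC (−0.93 ± 0.10, adjusted p = 1.94e-07), the growth arrest gene Gadd45a with LP 3M (−1.11 ± 0.20, adjusted p = 0.000213) and the folate enzyme Mthfd1l with LP PIC (−1.20 ± 0.15, adjusted p = 2.71e-06).

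A list of heat shock genes was also examined, which holds the mitochondrial Hspe1 and Hspd1 beside cytosolic chaperones. Of its 14 tested genes, 9 rose and 2 fell with LP 3M PIC, 8 rose and 2 fell with LP 3M and 4 rose and 3 fell with LP PIC. The shares called were 78.6%, 71.4% and 50% with LP 3M PIC, LP 3M and LP PIC, the last near the 45.5% of all tested genes (62.2% and 39.5% with LP 3M PIC and LP 3M). Hspe1, a mitochondrial co-chaperonin on that list, rose by 0.74 ± 0.11 with LP 3M PIC and 0.64 ± 0.10 with LP PIC (adjusted p = 5.97e-06 and 6.56e-05), as did Hsf1, the heat shock factor, by 0.50 ± 0.06 and 0.44 ± 0.06 (adjusted p = 1.59e-06 and 1.78e-05). Hspd1, the chaperonin partner of Hspe1, and the Hsp110 gene Hspa4 rose with LP 3M by 0.62 ± 0.08 and 0.34 ± 0.05 (adjusted p = 4.25e-06 and 4.05e-05). Dnajb4, an Hsp40 gene, fell with each formulation, at −0.52 ± 0.21, −0.63 ± 0.21 and −0.94 ± 0.22 with LP 3M PIC, LP 3M and LP PIC (adjusted p = 0.0438, 0.027 and 0.0016). It was lower in 3, 4 and 5 of 5 mice in that order, and its LP libraries spread widely (40.7 ± 18.7 CPM, SD, n = 5). Bag3, a co-chaperone of selective autophagy, also fell with each, at −0.74 ± 0.10, −0.43 ± 0.10 and −0.69 ± 0.10 with LP 3M PIC, LP 3M and LP PIC (adjusted p = 3.75e-06, 0.00216 and 1.89e-05).

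Exons of 12 of the 36 genes overlap another annotated gene in GENCODE M21 (GRCm38), and the strand setting of the counting is not given in the sources used here, so their counts are less certain. Ddit3 alone of the 36 has 2 gene records under its symbol there, and the coordinates given are of the first. Ddit3 (chr10:127290774-127296288, plus strand) overlaps Mars on the opposite strand, which averaged 62.3 CPM in LP 3M PIC, 60.8 in LP 3M, 57.9 in LP PIC and 58.3 in LP. Atf5 (chr7:44812256-44816658, minus strand) overlaps Nup62, at 86.4, 88.9, 75.2 and 83.3 CPM in the same order, and Il4i1, at most 0.399 CPM in any library. Ppp1r15a (chr7:45522916-45526268, minus strand) overlaps Tulp2, at most 0.128 CPM. The others are Hsp90b1, Pdia3, Pdia4, Pdia6, Manf, Dnajb9, Syvn1, Eif2ak3 and Shmt2.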

How the data were processed

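Total RNA was taken after 48 h and poly(A) RNA sequenced with a stranded kit, per the labels' protocols. What the authors deposited are whole, unnormalised read counts for each gene symbol. Build GRCm38 and the tools HTSeq 0.13.5, STAR 2.7.11b, FastQC 0.11.1 and DESeq2 1.44.0 appear in the submitters' processing notes, and neither annotation nor strand setting is given in the sources used here. Reads outside genes (5.94 to 8.58%) and reads shared by genes (1.14 to 1.90%) stayed out of library sizes and tests. A floor of 3 counts is 0.126 to 0.308 CPM; reads carry no molecular identifiers, so floors cover counting error only. No libraries were duplicates (chi-squared per degree of freedom at least 7.43 over 190 pairs).

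CPM of single genes were computed from plain library totals. Genes were kept by filterByExpr (minimum count 10, minimum total 15), which left 12132 genes with 99.969% of the counts. Counts were scaled by TMM (factors 0.945 to 1.07) and tested, two-sided, by edgeR's quasi-likelihood F-test with robust dispersion (edgeR 4.0.16, limma 3.58.1, R 4.3.3), with 1 mean per condition over all 20 libraries and Benjamini-Hochberg adjustment over all tested genes. The fit had no term for mouse, so it ignored the pairing of libraries from the same mouse. With mouse as a block, the shares of all tested genes called were 65.6% with LP 3M PIC, 45.8% with LP 3M and 51.1% with LP PIC. The shares as reported were 62.2%, 39.5% and 45.5%. For the interaction the block called 13.65%, against 8.43% as reported. Each SE is the size of the log2 change over the root of its F statistic. Fold changes use TMM-scaled sizes and the printed CPM do not: log2 changes against LP exceed log2 ratios of mean CPM by a median of 0.115 with LP 3M PIC, 0.112 with LP 3M and 0.0442 with LP PIC, which matters for small changes. The sign differed for 10 of 216 member values over 6 comparisons, none of them called; Asns with LP 3M PIC and Ppp1r15a with LP 3M are among these. The scripts were tested on simulated counts. Alternatives were library totals, RLE factors, DESeq2 1.42.0, no filter, mouse as a block, only the conditions compared, and leaving out each mouse or 1 of 3 libraries. Same-numbered libraries come from the same mouse, per the labels, and deviated together (correlations of at least 0.178 within mice, median −0.12 between mice). Coordinates, exon lengths and overlaps are from GENCODE M21, promoters from RefSeq (GRCm38.p6).

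The 36 genes, the lists and the tests were chosen with earlier results of these data known. Values in every library are given for Hspa5, Xbp1, Atf4, Ddit3 and Asns and, in each role, for the gene with the smallest p in each comparison against LP and in the interaction. From the 3 other lists, the text names the 2 called genes with the smallest p in each direction and comparison against LP, at 5 CPM or more in the higher condition.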

Additional observations from a re-analysis of the deposited data

Results flagged for a closer look

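In 6 of 144 sets of 5 libraries (36 genes in 4 conditions), 1 library lay far from the other 4 by Dixon's test; chance flags about 1 set in 20, or 7.2 of 144. In LP PIC, mouse 4 was low for Sel1l (132.4 CPM, others 178 to 192) and Eif2ak3 (18.08 CPM, others 27.0 to 28.8) and high for Atf5 (140.6 CPM, others 113 to 119). In LP 3M PIC, Xbp1 was low in mouse 5 (123.4 CPM, others 148 to 158) and Ern1 in mouse 2 (40.78 CPM, others 54.0 to 57.9). In LP, Phgdh was high in mouse 2 (43.94 CPM, others 21.2 to 26.3), the library with the fewest reads.

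For 7 genes the change with PIC differed between cells with and without 3M by the interaction test (edgeR, adjusted p under 0.05). On the log2 scale the difference was 1.644 for Psat1, 1.42 for Chac1, 1.121 for Trib3, 0.7045 for Ppp1r15a, 0.6772 for Asns, 0.3763 for Atf4 and −0.5149 for Calr.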

How the results depend on the processing

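Of the changes against LP and the interactions, 90 were called as reported or under an alternative. Over these 90, RLE factors moved none across the threshold, DESeq2 moved 2, and leaving out LP 3M of mouse 5 moved 3. Other alternatives moved more. Library totals removed 10 calls and added 9, and the mouse block removed 1 and added 10. Leaving out mouse 4 removed 18 calls and added 2, and leaving out mouse 3 removed 12 and added 2. Without mouse 1 or mouse 2, 12 and 11 calls were removed. Another 54 were never called; 19 of them, of at most 0.15 on the log2 scale as reported, changed sign under some alternative. Library totals without TMM scaling shifted the median of all genes to −0.10 with LP 3M PIC and −0.12 with LP 3M (0.02 and −0.01 as reported), so changes with those formulations are relative to that shift. They also turned the calls over all genes to 3060 higher and 4541 lower with LP 3M PIC (3840 and 3711 as reported) and to 1687 and 3564 with LP 3M (2422 and 2368). On these totals the members that fell were 8 with LP 3M PIC and 7 with LP 3M.

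The members that fell with LP 3M, 2 as reported, were 5 with the replicate block (mouse) and 5 in a fit of only the conditions compared, and 2 to 4 leaving out a mouse or library. With LP 3M the block called 45.8% of all tested genes and the fit of only the conditions compared 42.1%, against 39.5% as reported. The fits that left out a mouse or library called 29.03% to 42.02%. The block made 2 interactions lower instead of 1, and its changes to calls against LP and to the interaction are given beside the genes. Leaving out a mouse or library, 3 to 7 members rose with LP PIC, 6 to 12 were lower in LP 3M PIC than in LP 3M, and the interaction called 1 to 6 higher and 0 to 2 lower. Those fits called 34.53% to 45.61% of all tested genes with LP PIC, against 45.5% as reported. Between LP 3M PIC and LP 3M they called 31.64% to 41.15% of all tested genes, against 41.5% as reported. For the interaction they called 1.499% to 11.5% of all tested genes, against 8.43% as reported. The interaction's chaperone minus amino acid difference, −0.49, ran from −0.53 to −0.33, the last without LP 3M PIC of mouse 3. The cause was not tested. Depth limits Chac1 most, at 34 reads in its lowest library.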
